A study of Mus musculus with 3 samples.

Results

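The genes described here are the serpins, cystatins, stefins, Wfdc and Spink genes of mouse nasal mucosa, which encode protein inhibitors of proteases or relatives of such inhibitors. They were chosen by symbol (names starting with Serpin and a clade letter, Cst, Stfa, Wfdc or Spink, without Cstf genes and Cstad) and by a total of at least 50 unique molecular identifiers (UMIs, which count captured RNA molecules) over the 3 libraries of the series. Of 125 symbols, 53 met both conditions, out of 21574 genes with at least 50 UMIs. A further 38 symbols had no UMI and 34 had fewer than 50. Just outside the threshold lay Serpinb1c (42 UMIs), Stfa3 (44) and Serpinb6c (47), and just inside it Serpinb9b (58) and Cstdc7 (62). The threshold used the sum over all libraries, so a gene counted in 1 library alone could enter through that library.

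The study set C57BL/6J mice given PBS in the nose beside mice given 20 µg of papain, a cysteine protease from papaya, in the nose and PBS by gavage, and beside mice given the same papain and lonidamine by gavage at 10 mg/kg. Lonidamine blocks hexokinase and the transport of pyruvate and lactate. The design text gives each group equal numbers of males and females; the sources used here give neither the age of the mice nor the number in a pool. The mice of a group were pooled, so each group is 1 droplet 3′ library and no spread between animals exists. No test was possible, no p-value is given, and "higher" or "lower" describes these libraries only, which are called the PBS, papain and lonidamine library. One label of the papain library reads Fibroblast, but fibroblast-like cells were 4.68% of its cells.

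Serpins trap serine proteases, and some clade B members cysteine proteases, in a suicide reaction in which the enzyme stays bound to the cleaved inhibitor. Cystatins and stefins block papain-like cysteine proteases reversibly: stefins act inside cells, and cystatins are secreted. Wfdc proteins carry the whey acidic protein fold and Spink proteins the Kazal fold, and both families hold inhibitors of serine proteases of epithelia and leukocytes. Mucosal surfaces are known to balance such inhibitors against proteases of neutrophils, epithelium and inhaled allergens.

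After filtering, the libraries held 9378, 10524 and 11887 cells in the order PBS, papain, lonidamine, which is the order of all triplets of values below. Their medians were 7352.5, 6547 and 5823 UMIs per cell, and 22 to 38 barcodes were shared by a pair of libraries and 0 by all 3. Nuclear 18S ribosomal RNA took 0.877%, 3.66% and 3.51% of UMIs, and 56.8%, 73.2% and 83.1% of cells with a call from sex-linked genes were female. Squamous keratinizing-like cells (0, 1 and 35), neutrophil precursor-like cells (15, 15 and 251) and erythroid-like cells (1, 4 and 71) came mostly from the lonidamine library, and results on the inhibitor genes that rest on them are given with and without them. In sums over a library, fewer cells of a type and less RNA per cell cannot be told apart. The part of sex, 18S and depth in the results was not tested.

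The 53 genes were very unequal in abundance. Wfdc2 and Wfdc18 alone took 64.9% of their UMIs, and with Cst3 73.7%. The other genes with at least 10000 UMIs were Cstb, Serpine2, Serpina3n, Serpinb11, Serpinb6a, Serpinb1a, Serpinh1, Serping1 and Wfdc17, while 13 genes had fewer than 200. Together the genes stood at 3743, 6447 and 6336 CPM (UMIs scaled to an equal total). The Wfdc group had the widest difference in summed CPM, with 1781, 4676 and 4579 CPM, and the Spink group the widest ratios, with 4.65, 14.6 and 52.8 CPM. The sums of the secreted cystatins (686, 410.1 and 433 CPM) and of the clade C to I serpins (579, 422 and 430.03 CPM) were highest in the PBS library.

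**Figure D1:**
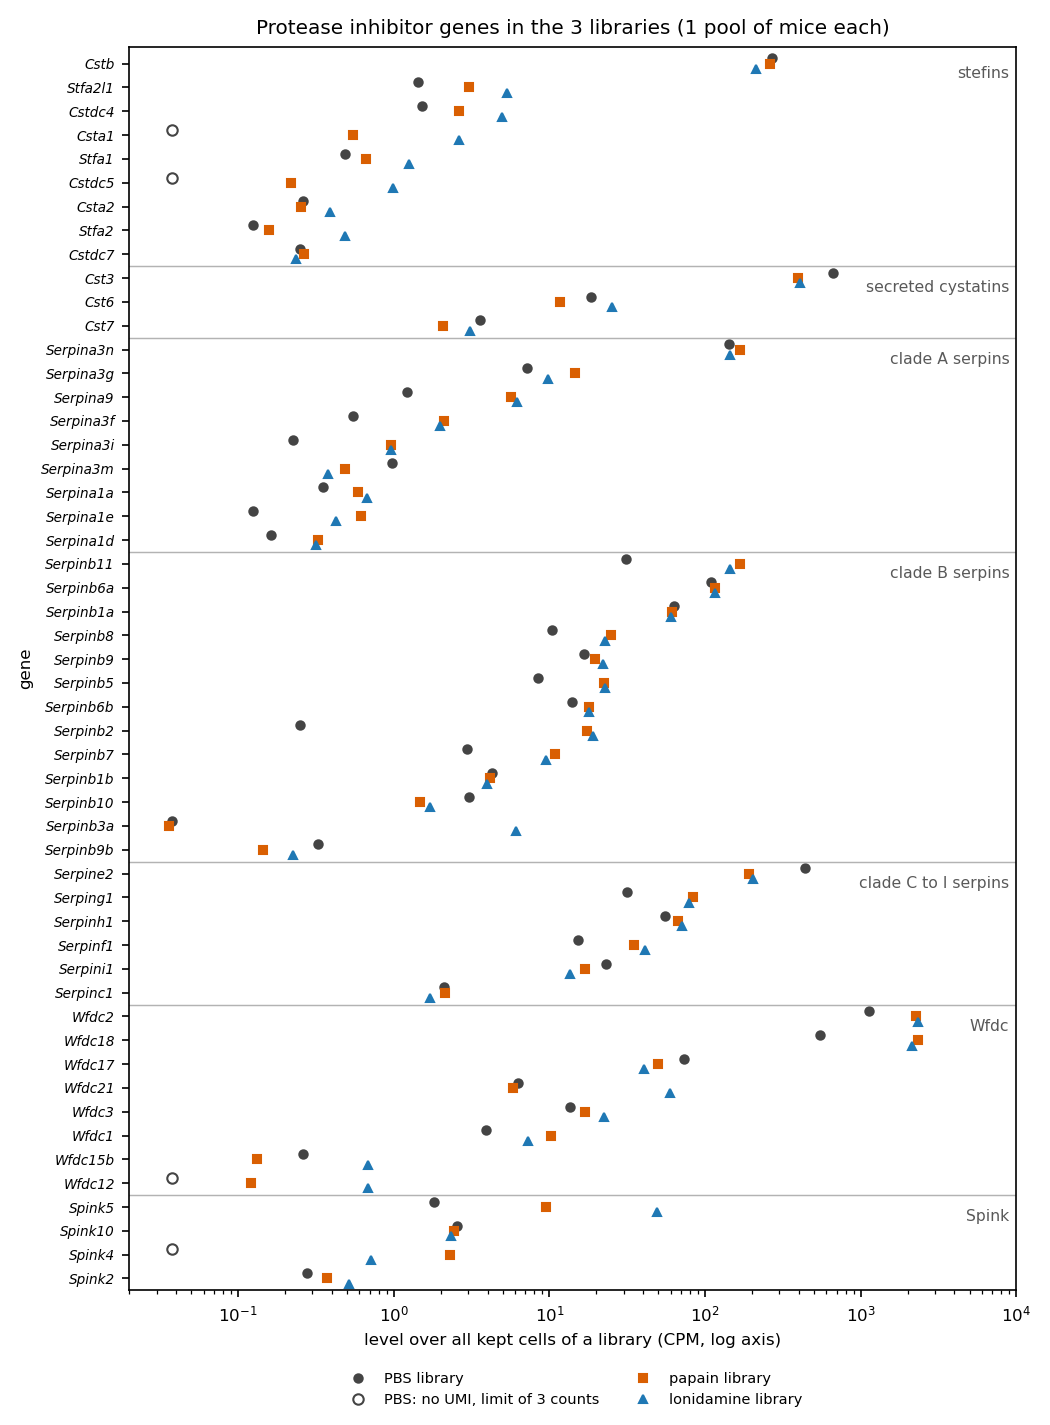
Level of 52 of the 53 genes in each library (x axis, CPM over all kept cells, log scale; y axis, genes by group), with circles for the PBS, squares for the papain and triangles for the lonidamine library, each 1 pool of mice, and open circles at the limit of 3 counts for 4 genes with no UMI in the PBS library. Markers of most genes lie close together, while Serpinb2, Spink5, Serpinb3a, Spink4 and Csta1 are spread widely.

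Cell classes were named from marker genes after clustering without the 53 genes. Squamous keratinizing-like cells had the highest level, with the libraries pooled, of 9 genes (Cst6, Csta1, Cstdc5, Serpinb2, Serpinb3a, Serpinb5, Serpinb7, Serpinb8 and Spink5), neutrophil-like cells of 6, fibroblast-like and natural killer-like cells of 5 each and multiciliated-like cells of 4. Neutrophil-like cells led for the stefins Stfa2l1, Cstdc4, Stfa1, Stfa2 and Csta2 and for Wfdc17, and fibroblast-like cells for Serpinh1, Serpinf1, Serping1 and Serpina3i among others. Natural killer-like cells led for Serpinb9, an inhibitor of granzyme B, and for Serpinb6b, Serpinb9b, Serpina3g and Cst7. In these cells Serpinb9 stood at 529, 610.05 and 605 CPM and Serpinb6b at 389.6, 446 and 467 CPM, less than 2-fold apart between libraries.

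**Figure D2:**
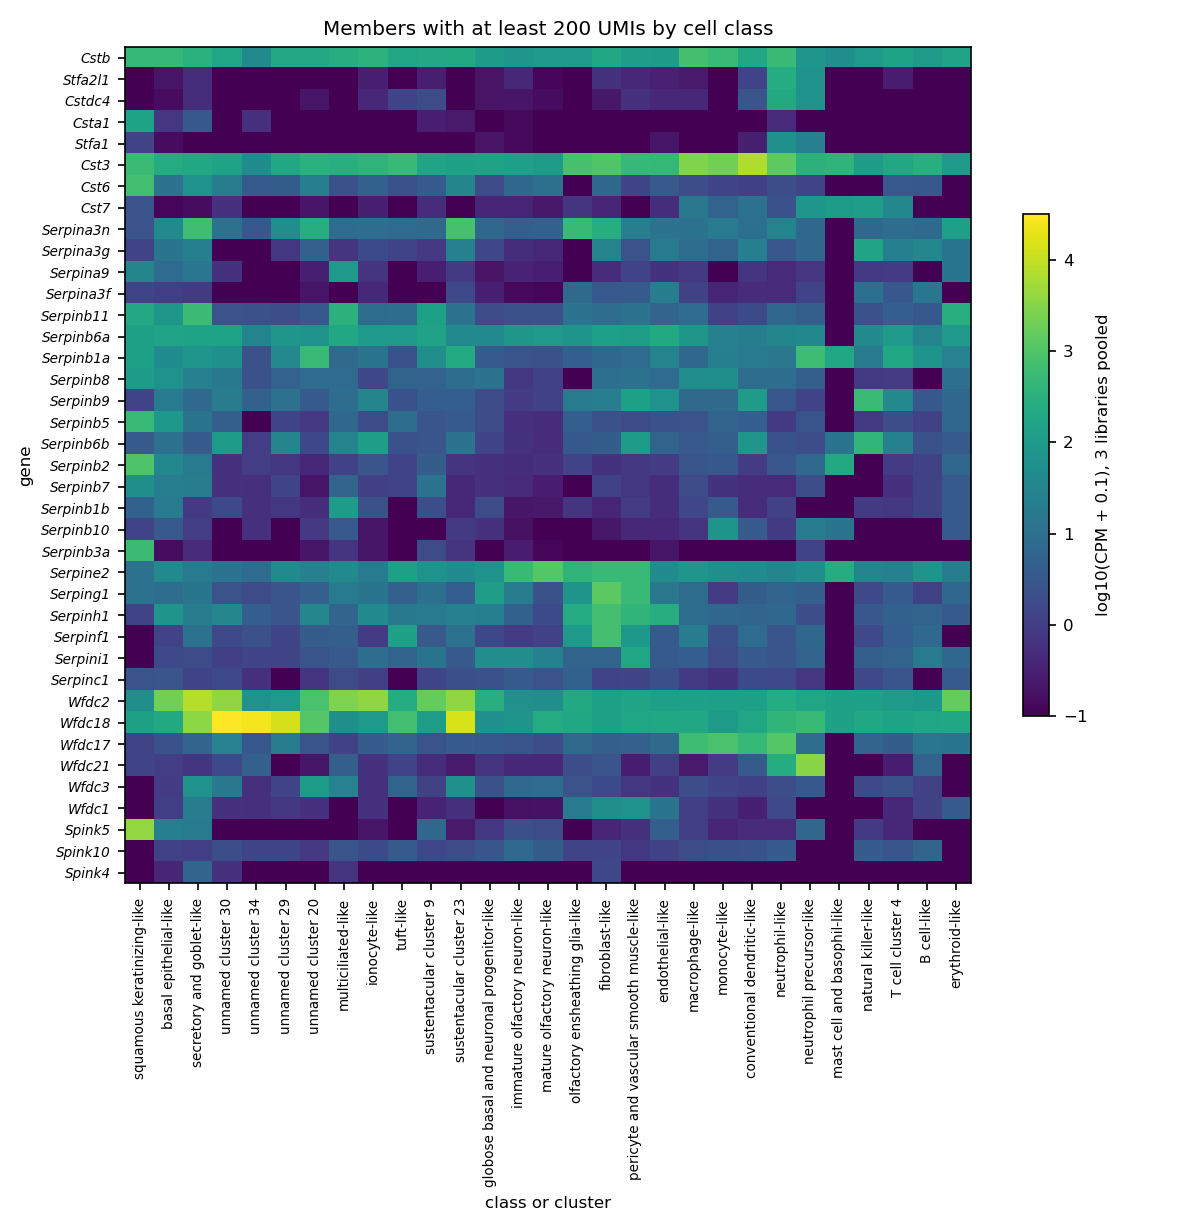
Levels of 39 of the 40 genes with at least 200 UMIs in each class or cluster, with the libraries pooled, as log10(CPM + 0.1) in colour (genes on the y axis, classes or clusters on the x axis). Bright blocks mark the squamous keratinizing-like genes (Spink5, Serpinb2, Serpinb3a, Serpinb5), the neutrophil stefins, the fibroblast serpins, and Wfdc2 and Wfdc18 in secretory and goblet-like cells and the unnamed clusters 30 and 34.

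Papain against PBS was read first as a ratio over all cells. Of the 53 genes, 20 were at least 2-fold higher in the papain library, against 10.0% of all genes measured, and 4 at least 2-fold lower, against 5.19%. Their median log2 ratio was 0.43, while that of all genes was -0.01; with genes at 0 UMIs set to the limit of 3 counts the median was 0.44. The 20 were Csta1, Cstdc5 and Stfa2l1 among the stefins, 5 clade A serpins, 5 clade B serpins, Serping1 and Serpinf1, Wfdc18, Wfdc1 and Wfdc12, and Spink4 and Spink5. Lower were Serpine2, Serpinb10, Serpinb9b and Serpina3m. Wfdc2 (0.99) lay just under 2-fold. Square brackets hold 95% intervals of log2 ratios, which cover counting error only.

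The make-up of the libraries differed as well. Secretory and goblet-like cells were 3.65% and 10.7% of PBS and papain cells, basal epithelial-like 10.1% and 14.7%, fibroblast-like 1.45% and 4.68% and neutrophil-like 2.66% and 6.52%. Mature olfactory neuron-like cells were 28.5% and 12.02% and monocyte-like cells 4.55% and 1.05%. With each class at the same weight in both libraries, 15 genes were at least 2-fold higher and 3 lower, but these were in part different genes. The share of all genes with these weights was not counted, so both counts stand without a background. Of the 20 higher genes 12 were among the 15. Serpinf1 then stood at -0.26 in place of 1.19, Stfa2l1 at -0.06 in place of 1.07, Serping1 at 0.39 in place of 1.40, Wfdc1 at 0.41 in place of 1.37 and Serpina3g at 0.55 in place of 1.02. Serpinb7 (0.97), Serpinb5 (0.95) and Serpinb8 (0.95) lay just inside 2-fold, and Wfdc2 was at 0.19. The 3 genes that were 2-fold higher with the weights alone were Serpina1a (1.14), Serpina1d (1.17) and Spink2 (1.37). Of the 4 lower genes Serpina3m alone was among the 3 (-2.09). Serpine2 stood at -0.43 in place of -1.20, Serpinb10 at -0.07 and Serpinb9b at -0.36, while Wfdc15b (-1.44) and Cst6 (-1.40) were 2-fold lower with the weights alone. Serpinb2 (5.96 beside 6.10) and Wfdc18 (1.95 beside 2.09) stood nearly as far apart as without the weights. The weights act on whole classes, so differing shares of the clusters inside a class stay in these ratios. Cluster 15 of the secretory and goblet-like class, for instance, held 35 PBS and 410 papain cells, and cluster 18 of the basal epithelial-like class 10 and 391.

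**Figure D3:**
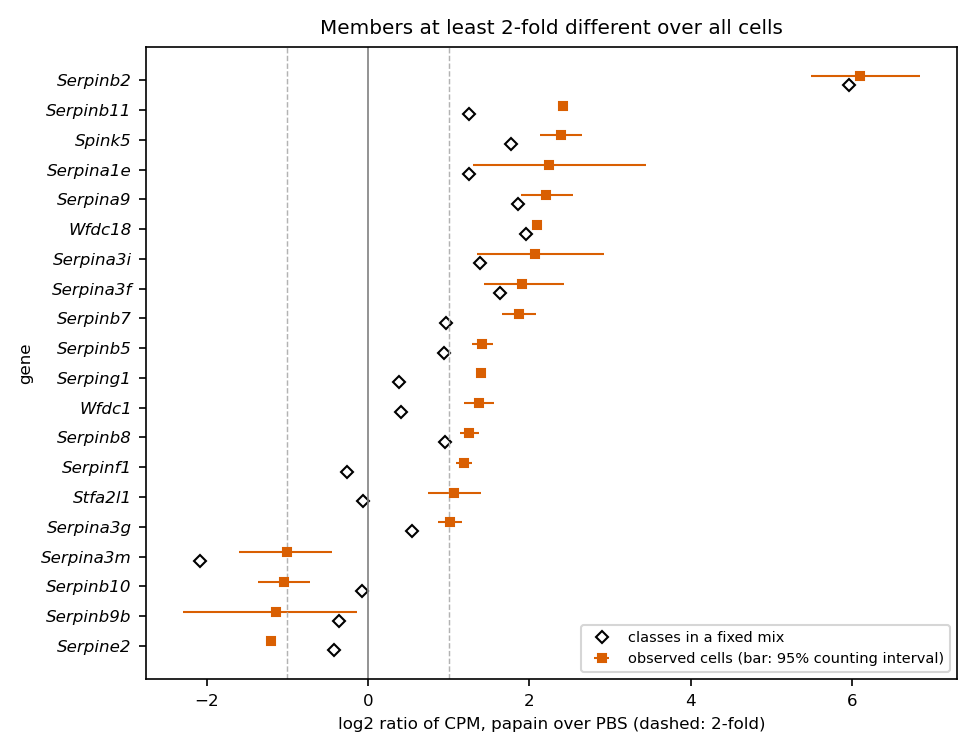
Log2 ratio of CPM, papain over PBS (x axis), for genes at least 2-fold different over all cells and counted in both libraries (y axis); squares are the observed libraries with 95% counting intervals, open diamonds the ratio with every class at 1 fixed weight, and dashed lines 2-fold. The diamonds of Serpinf1, Stfa2l1 and Serping1 lie inside the 2-fold lines, and that of Serpinb2 lies beside its square.

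Within classes, a gene was compared where it had at least 20 UMIs and at least 10% of its highest class level, since RNA set free from other cells can give lower levels. Of 142 pairs of a gene and a class, 27 were at least 2-fold higher in the papain library, against 5.89% of all pairs measured, and 10 at least 2-fold lower, against 5%. Secretory and goblet-like cells held 9 of the higher pairs among 19 (6.64% of all genes there) and 3 of the lower (9.02%). Basal epithelial-like cells held 7 of 17 higher (5.65%) and 0 lower (7.27%), and pericyte and vascular smooth muscle-like cells 5 of 13 higher (7.40%) and 0 lower (3.01%). Mature and immature olfactory neuron-like, neutrophil-like, monocyte-like, dendritic-like and ionocyte-like cells, with 4 to 8 pairs each, held no pair at 2-fold in either direction. Of all genes in these classes 3.81% to 7.71% were higher and 2.87% to 7.08% lower. With so few pairs, counts of 0 lie near these shares.

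The inhibitors of papain-like enzymes come first. Cst3, cystatin C, a secreted inhibitor of cathepsins, stood at 664, 396 and 405 CPM, 1.68-fold lower in the papain than in the PBS library (-0.74 [-0.76, -0.72]) and near level between papain and lonidamine. Conventional dendritic-like cells, its highest class, stood at 9092, 5737 and 5796 CPM and macrophage-like cells at 3807, 2024 and 2428 CPM. Both classes were thus lower in the papain library, as the whole tissue was. Monocyte-like cells, at 2249.7, 1883 and 1793 CPM, differed less (-0.26).

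Cstb, stefin B, the intracellular inhibitor of cathepsins, was near level over all cells with 271, 261 and 213 CPM. Macrophage-like cells stood at 994, 622 and 471 CPM, neutrophil-like cells at 885, 459 and 347 and basal epithelial-like cells at 495, 526 and 409.8 CPM. Both myeloid levels were below PBS in the papain and in the lonidamine library, and the basal level in the lonidamine library alone. In sustentacular cluster 9, support cells of the olfactory epithelium, Cstb was at 395, 181 and 187 CPM (-1.13 [-1.27, -0.98]). This was the only compared class in which its papain and PBS levels were at least 2-fold apart. There the 9 sustentacular markers summed to 25536.5, 39192 and 43316 CPM and the 9 mature neuron markers to 4227, 1408 and 1017 CPM, none at 0. The part of these differences in the ratios of cluster 9 was not tested.

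Cst6, cystatin E/M, an inhibitor of legumain and cathepsins in skin, stood at 18.5, 11.7 and 25.1 CPM. In secretory and goblet-like cells it was at 124, 33.2 and 68.7 CPM, a papain ratio of -1.90 [-2.07, -1.74]. Most Cst6 of the class lay in cluster 21 (led by Calb1 and Gcnt3), which held 136 of 342 PBS and 103 of 1130 papain cells. Within cluster 21 Cst6 was at 287, 205 and 246 CPM, within cluster 15 at 7.88, 13.9 and 24.96 and within cluster 10 at 3.82, 6.36 and 3.44 CPM, so none of these 3 clusters was 2-fold lower in the papain library. With called doublets kept the class ratio was 0.29, and with each library clustered alone 4.08, so its direction depended on how the class was drawn. Cst7, cystatin F, which controls cathepsins in cytotoxic lymphocytes, stood at 3.60, 2.07 and 3.11 CPM, and in natural killer-like cells at 154, 83.8 and 97.96 CPM.

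The stefins that neighbour each other on chromosome 16 are near copies, so reads could be split or lost between them in counting and their single values are uncertain. Stfa2l1 (1.44, 3.03 and 5.32 CPM) and Cstdc4 (1.53, 2.64 and 4.98 CPM) had 80.9% and 76.2% of their UMIs in neutrophil-like cells. Inside these cells Stfa2l1 stood at 191, 204 and 349 CPM and Cstdc4 at 205, 183 and 279.9 CPM. The level inside the class was therefore close in the PBS and papain libraries, of which neutrophil-like cells were 2.66% and 6.52%. Stfa1 had 39, 55 and 107 UMIs, Stfa2 10, 13 and 41, Csta2 21, 21 and 33 and Cstdc7 20, 22 and 20, and the intervals of their papain ratios include 0. Cstdc5 had 0, 18 and 84 UMIs, at least 5.79-fold higher in the papain than in the PBS library against a limit of 3 counts per library, and 55.6% of its papain UMIs came from 1 cell.

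Csta1, a stefin A gene of cornified epithelium, had 0, 45 and 222 UMIs. Papain was at least 14.5-fold higher than PBS against the limit of 3 counts, but 55.6% of the papain UMIs came from 1 of 12 cells. Secretory cluster 15, led by Clca1, held 36 of the papain and 77 of the lonidamine UMIs, and squamous keratinizing-like cells 4 and 118. Serpinb3a, a clade B serpin of the group that can inhibit papain-like proteases, had 3, 3 and 516 UMIs. At this depth no difference between PBS and papain was detectable (-0.05 [-2.95, 2.85]), and 35 squamous keratinizing-like cells gave 90.3% of the lonidamine UMIs.

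Of the clade B serpins, 5 were at least 2-fold higher in the papain library, and all 5 are neighbours on chromosome 1. Serpinb2, plasminogen activator inhibitor 2, stood at 0.250, 17.5 and 19.1 CPM, from 20, 1453 and 1625 UMIs. The papain library was 68.4-fold higher than the PBS library (6.10 [5.50, 6.85]), the widest ratio among the genes counted in both. Basal epithelial-like cells gave 65.9% and secretory and goblet-like cells 27.7% of the papain UMIs. Both classes were below 10% of the level in squamous keratinizing-like cells (981 CPM) and were not among the pairs counted.

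By cluster, Serpinb2 stood at 4.09, 73.8 and 30.4 CPM in basal cluster 6 and at 0, 62.1 and 48.9 CPM in secretory cluster 15. Basal cluster 18, whose leading genes include Krt16 and Krt6a, had 135 CPM in the papain and 59.8 in the lonidamine library, with only 10 PBS cells. Basal cluster 3, with 705, 617 and 554 cells, had 0, 4 and 1 UMIs, so Serpinb2 was nearly lacking in the largest basal cluster. The 10 squamous markers summed to 89.7, 473 and 533 CPM in basal epithelial-like and to 22.6, 319.5 and 394 CPM in secretory and goblet-like cells, with 2, 1 and 0 and with 4, 1 and 0 of them at 0. Their part in the ratio was not tested.

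Serpinb11, an epithelial clade B serpin, stood at 31.2, 166 and 144 CPM (2.41 [2.35, 2.48]), and 76.4% of its UMIs lay in secretory and goblet-like cells. There it was at 311, 736 and 576 CPM (1.24). Within cluster 10 the levels were 464, 533 and 369 CPM and within cluster 15 831, 1169.5 and 1129 CPM, ratios of 0.20 and 0.49. Cluster 15 held 35, 410 and 412 cells. Cluster 21 had a wider ratio (2.74) at a lower level, with 6.67, 45.8 and 37.5 CPM. In sustentacular cluster 9 Serpinb11 was at 53.5, 125 and 162 CPM (1.22 [0.89, 1.57]).

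Serpinb5, maspin, an epithelial serpin that does not inhibit proteases in the classical way, stood at 8.42, 22.5 and 22.6 CPM (1.42 [1.29, 1.55]), and basal epithelial-like cells, with 72.99% of its UMIs, at 61.01, 106 and 85.7 CPM. Taken singly, basal cluster 3 (-0.15) and cluster 6 (0.08) had Serpinb5 ratios near 0. Serpinb7, megsin, known from an inherited human skin disease of palms and soles, stood at 2.96, 10.9 and 9.44 CPM (1.87 [1.67, 2.09]). In basal epithelial-like cells Serpinb7 was at 12.95, 30.1 and 22.5 CPM (1.21), with 2.32 in cluster 3 and -0.42 in cluster 6, on opposite sides. Serpinb8, which blocks furin, stood at 10.4, 24.8 and 22.7 CPM (1.26 [1.14, 1.38]). Basal epithelial-like cells had Serpinb8 at 29.8, 85.2 and 74.2 CPM (1.51), but cluster 3 and cluster 6 taken singly had ratios of 0.26 and 0.45. Cluster 18, with 10, 391 and 367 cells, carried 636 of the 1183 papain UMIs.

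The upstream sequences of these neighbours are shown because 5 of the 7 chromosome 1 genes were at least 2-fold higher over all cells. Serpinb10 was lower and Serpinb3a had 3 UMIs in both the PBS and the papain library. With each class at the same weight, Serpinb5 (0.95), Serpinb7 (0.97) and Serpinb8 (0.95) lay under 2-fold, so the choice rests on whole-library sums. The sequences come from RefSeq's promoter windows on GRCm38.p6, restricted to the 250 bases before the start site. Of the 53 genes, 40 had an entry. Capitals mark matches to TGANTCA and to TTC, any 4 bases and GAA, the spacing bound by STAT6. TGANTCA is looser than the AP-1 site, which has C or G in the middle where N allows any base. Both motifs are their own reverse complement, so 1 search covers both strands. Those printed, with 1 of the 2 windows of Serpinb2, lie on the plus strand of chromosome 1, written from 5′ to 3′.
Serpinb5 (chr1:106860925-106861174): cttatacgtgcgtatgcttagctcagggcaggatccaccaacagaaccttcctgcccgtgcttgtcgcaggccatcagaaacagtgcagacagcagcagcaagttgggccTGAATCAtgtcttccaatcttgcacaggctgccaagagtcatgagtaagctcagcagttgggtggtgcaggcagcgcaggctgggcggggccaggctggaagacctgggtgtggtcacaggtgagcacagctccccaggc
Serpinb11 (chr1:107362064-107362313): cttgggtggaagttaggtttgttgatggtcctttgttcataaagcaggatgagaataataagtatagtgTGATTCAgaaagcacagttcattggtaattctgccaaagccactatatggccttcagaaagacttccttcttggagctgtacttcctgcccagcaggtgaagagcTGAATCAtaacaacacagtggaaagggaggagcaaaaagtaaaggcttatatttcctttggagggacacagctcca
Serpinb7 (chr1:107422439-107422688): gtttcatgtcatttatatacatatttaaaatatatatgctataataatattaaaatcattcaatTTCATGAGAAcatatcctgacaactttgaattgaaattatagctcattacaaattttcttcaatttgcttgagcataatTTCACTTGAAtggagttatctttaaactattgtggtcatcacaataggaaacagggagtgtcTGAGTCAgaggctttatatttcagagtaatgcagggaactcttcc
Serpinb2 (chr1:107511173-107511422): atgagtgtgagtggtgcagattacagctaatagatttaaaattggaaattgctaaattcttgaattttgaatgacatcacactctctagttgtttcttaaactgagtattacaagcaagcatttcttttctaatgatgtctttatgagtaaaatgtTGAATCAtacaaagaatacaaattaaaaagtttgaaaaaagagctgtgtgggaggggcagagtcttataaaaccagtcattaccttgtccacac
Serpinb10 (chr1:107528753-107529002): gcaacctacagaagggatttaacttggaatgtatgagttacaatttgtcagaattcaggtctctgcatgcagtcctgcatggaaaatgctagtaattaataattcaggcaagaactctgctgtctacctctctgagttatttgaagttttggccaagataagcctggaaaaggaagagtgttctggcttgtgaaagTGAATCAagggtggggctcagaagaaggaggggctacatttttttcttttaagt
Serpinb8 (chr1:107589756-107590005): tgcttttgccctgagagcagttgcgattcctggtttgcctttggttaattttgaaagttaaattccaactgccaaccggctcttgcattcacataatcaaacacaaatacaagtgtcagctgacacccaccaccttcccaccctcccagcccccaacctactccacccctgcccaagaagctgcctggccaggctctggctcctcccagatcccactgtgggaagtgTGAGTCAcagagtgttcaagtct

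TGANTCA occurred before 6 of the 7 chromosome 1 neighbours, all but Serpinb3a, in 8 of the 40 genes with an entry (20%) and in 7.82% of all genes with an entry. Of the printed windows only those of Serpinb7 and Serpinb8 hold the AP-1 form TGAGTCA, and the marks of the others have A or T in the middle. Shares for the AP-1 form alone were not counted. The STAT6 type of motif occurred in 4 of the 40 genes (10%) and in 6.76% of all genes, and Serpinb7 had a pair of matches. Such a match describes the letters and not binding. Serpinb10, whose window also holds a TGANTCA match, was lower in the papain library.

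Serpinb10, a serpin of myeloid cells, had 242, 122 and 145 UMIs (-1.04 [-1.37, -0.72]), and 51.1% of them lay in monocyte-like cells, which were 4.55% and 1.05% of PBS and papain cells. Inside these cells it was at 73.9, 45.6 and 59.3 CPM, under 2-fold apart. The clade B genes of chromosome 13 differed less. Serpinb6a stood at 109, 116 and 117 CPM, Serpinb1a at 63.5, 61.5 and 60.4, Serpinb9 at 16.6, 19.7 and 22.0003, Serpinb6b at 13.98, 18.02 and 17.9 and Serpinb1b at 4.25, 4.12 and 3.99 CPM. These 5 lay within 2-fold, and Serpinb9b, on the same chromosome, was lower with 26, 12 and 19 UMIs (-1.14 [-2.29, -0.13]).

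The near level total of Serpinb1a, an inhibitor of neutrophil elastase and cathepsin G, held opposite differences between classes. T cell cluster 4 stood at 451, 125 and 97.2 CPM (-1.85 [-2.06, -1.65]), secretory and goblet-like cells at 37.7, 89.4 and 80.3 CPM (1.24) and basal epithelial-like cells at 26.4, 63.4 and 46.5 CPM (1.26). The epithelial ratios of Serpinb1a were also above 0 within secretory clusters 10, 15 and 21 (1.55, 2.28 and 0.97) and within basal clusters 3 and 6 (0.80 and 1.70). In T cell cluster 4 the 5 gamma delta T cell markers summed to 3613, 1594 and 1709.8 CPM and the 10 markers of group 2 innate lymphoid cells to 1324, 3644 and 3746 CPM, none of them at 0. Their part in the Serpinb1a ratio was not tested. Pericyte and vascular smooth muscle-like cells had Serpinb9 at 59.9, 129 and 193 CPM (1.10) and Serpinb6b at 22.04, 102 and 181 CPM (2.20), both higher in the papain library. In the same cells 9 sustentacular markers summed to 103, 696 and 1032 CPM, 12 serous gland markers to 197, 1168 and 916, 8 fibroblast markers to 551, 1999 and 2501 and 8 endothelial markers to 77.8, 147 and 246 CPM, against 36937, 30921 and 29541 CPM for the 10 markers of the class. Of the sustentacular markers 2, 1 and 1 were at 0, of the serous gland markers 8 in each library, of the fibroblast markers 3, 1 and 0 and of the endothelial markers none. Their part in both ratios was not tested.

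Of the 9 clade A serpins, 5 were at least 2-fold higher and 1 lower in the papain library; the Serpina3 and the Serpina1 genes are near copies within each family, so their counts are uncertain in the same way as those of the stefins. Serpina3n, an acute-phase serpin that inhibits cathepsin G and granzyme B, stood at 143, 167 and 144 CPM over all cells. Fibroblast-like cells were at 40.7, 343 and 264 CPM (3.06 [2.64, 3.54]), from 45, 1038 and 913 UMIs. Marker sums of other types also differed between libraries in this class: 9 olfactory ensheathing glia markers, among them Apod, which is also a leading gene of fibroblast-like cells, summed to 12400.5, 9334 and 5749.6 CPM, 10 pericyte and vascular smooth muscle markers to 2275, 4001 and 3064 CPM and 9 mature neuron markers to 2181, 440.2 and 389 CPM. At 0 were 4, 0 and 1 of the glia markers, 1, 0 and 0 of the pericyte markers and none of the neuron markers. Their part in the fibroblast ratios of Serpina3n and Serpinh1 was not tested. In secretory and goblet-like cells the class stood at 1229, 552 and 559.9 CPM (-1.15), yet cluster 10 (287, 330.4 and 221 CPM) and cluster 21 (2579, 3314 and 2006 CPM) were slightly higher in the papain than in the PBS library. With each library clustered alone the class ratio of Serpina3n was 1.13. Serpina3m, at 78, 40 and 32 UMIs, had 43 of 48 PBS UMIs of the class in cluster 21.

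**Figure D4:**
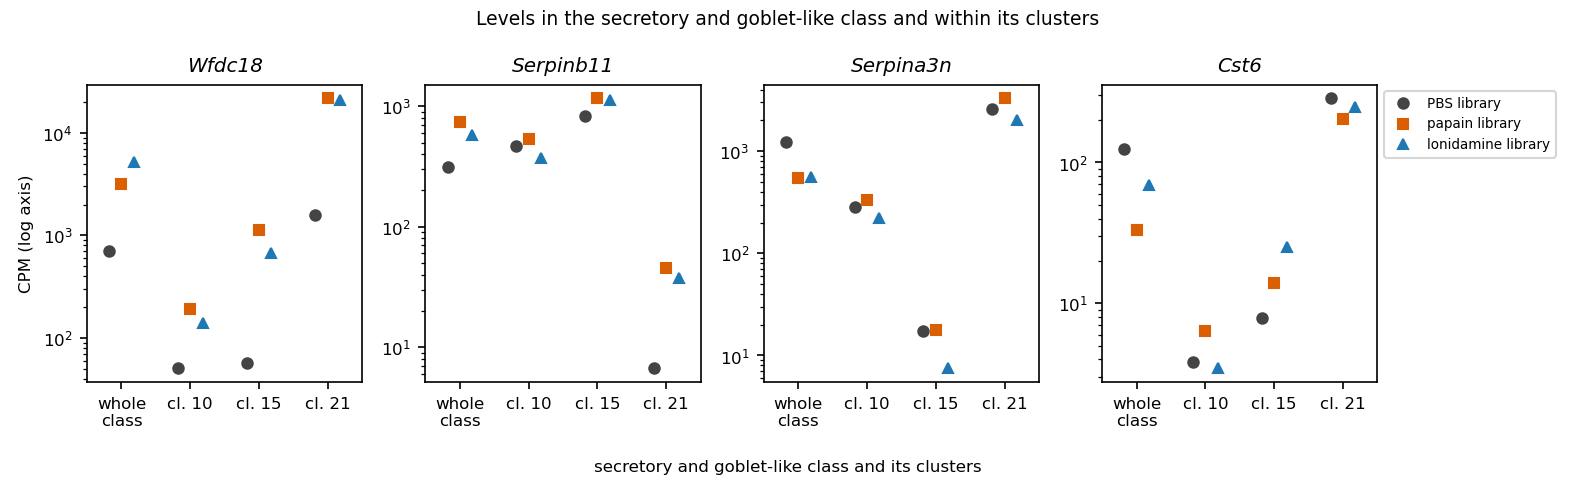
Levels (y axes, CPM, log scale) of Wfdc18, Serpinb11, Serpina3n and Cst6 in the whole secretory and goblet-like class and in its clusters 10, 15 and 21 (x axes), with circles for the PBS, squares for the papain and triangles for the lonidamine library. Wfdc18 lies higher in the papain than in the PBS library in every cluster shown, while Serpina3n and Cst6 lie lower in the class but not 2-fold lower in any of these clusters.

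Serpina3g, which inhibits cathepsins in activated lymphocytes, stood at 7.19, 14.6 and 9.85 CPM (1.02 [0.87, 1.16]). In endothelial-like cells it had 7, 74 and 91 UMIs (2.92 [1.90, 4.38]). In natural killer-like cells it was lower, at 241, 56.98 and 128 CPM (-2.04 [-2.90, -1.35]), and also in T cell cluster 4, at 45.7, 16.7 and 15.2 CPM (-1.45). Serpina3g thus lay on opposite sides in vascular and lymphoid cells, in data of 1 library per group. Serpina3f had 44, 173 and 169 UMIs over all cells (1.91 [1.44, 2.43]) and 3, 99 and 88 UMIs in endothelial-like cells (4.44 [3.06, 6.96]), all of them in endothelial cluster 14; cluster 26, with 75, 108 and 105 cells, had none. Serpina9, centerin, named for germinal centre B cells, stood at 1.21, 5.63 and 6.21 CPM (2.21 [1.90, 2.55]), highest in multiciliated-like cells (87.9 CPM). In secretory and goblet-like cells it was at 3.89, 15.3 and 17.5 CPM, with 4.58, 10.8 and 18.3 in cluster 10 and 14.2, 24.2 and 27.4 CPM in cluster 15.

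The other clade A genes had few UMIs. Serpina3i had 18, 80 and 81 (2.07 [1.35, 2.93]). Of the alpha-1 antitrypsin genes, Serpina1a had 28, 49 and 57 UMIs, Serpina1d 13, 27 and 27 and Serpina1e 10, 51 and 36. Serpina1a and Serpina1d lay mainly in immature olfactory neuron-like cells, with 76.9% and 62.7% of their UMIs, and Serpina1e in secretory and goblet-like cells with 80.4%.

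Of the 7 serpins of clades C to I, Serping1 and Serpinf1 were at least 2-fold higher over all cells and Serpine2 lower. Serpine2, protease nexin 1, an inhibitor of thrombin and urokinase known from nervous tissue, stood at 438, 190.3 and 202 CPM (-1.20 [-1.23, -1.18]), and mature olfactory neuron-like cells held 59.7% of its UMIs. Within these cells it was at 1283, 889 and 1058 CPM, less than 2-fold apart. Cluster 1, with 2254, 59 and 56 cells, had a papain ratio of -0.20, and cluster 0, with 210, 1187 and 1252 cells, one of -0.38. With every class at 1 weight the Serpine2 ratio was -0.43, under 2-fold. Macrophage-like cells had Serpine2 at 121, 50.2 and 21.4 CPM (-1.26); there the 9 mature neuron markers summed to 3057, 609 and 341 CPM, none at 0, and their part in the ratio was not tested.

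Serping1, the inhibitor of complement C1, stood at 31.7, 83.6 and 79.2 CPM (1.40 [1.33, 1.47]) and Serpinf1, pigment epithelium-derived factor, at 15.3, 34.99 and 40.9 CPM (1.19 [1.09, 1.29]). Fibroblast-like cells, their highest class, had Serping1 at 1068, 1407 and 1229 CPM and Serpinf1 at 904, 699 and 778 CPM, less than 2-fold apart. In pericyte and vascular smooth muscle-like cells Serpinf1 was at 11.02, 98.01 and 126 CPM (3.11 [2.42, 3.98]) and Serping1 at 289, 587 and 604 CPM (1.02). The 8 fibroblast markers summed to 25721, 16363 and 24892 CPM in fibroblast-like cells, and in pericyte and vascular smooth muscle-like cells to the sums given above with Serpinb9. Their part in the pericyte ratios was not tested.

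Fibroblast-like cells, in which Serpina3n was higher in the papain library, had Serpinh1 on the other side. Serpinh1, the collagen chaperone HSP47, which is a serpin without inhibitor activity, was at 1325, 605 and 655 CPM (-1.13 [-1.23, -1.03]). The class held 136, 492 and 651 cells. Over all cells Serpini1, neuroserpin, stood at 23.02, 16.96 and 13.6 CPM and Serpinc1, antithrombin, at 2.11, 2.15 and 1.71 CPM.

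Wfdc18 and Wfdc2 made up most counts of the Wfdc genes. Wfdc18, an epithelial whey acidic protein gene, stood at 548, 2335 and 2120.2 CPM, 4.26-fold higher in the papain than in the PBS library (2.09 [2.08, 2.11]). Its highest levels lay in 2 unnamed clusters: cluster 30, led by Klk1b9 and Klk1, held 18, 75 and 102 cells, and cluster 34, whose leading genes include Crisp1 and Obp1b, 16, 44 and 38. Pooled over libraries Wfdc18 stood there at 32284 and 25829 CPM, and all inhibitor genes described here summed to 36882 and 26077 CPM. By library these sums were 32490, 44668 and 31121 CPM in cluster 30 and 26899, 30291 and 22687 CPM in cluster 34. In both clusters the PBS and papain sums lay less than 2-fold apart, and the lonidamine sum was below that of PBS. Values of Wfdc18 alone by library are not given for these clusters. In secretory cluster 21 Wfdc18 was at 1589, 21867 and 20733 CPM (3.78), in cluster 15 at 56.7, 1136 and 675 and in cluster 10 at 50.4, 192 and 139 CPM, higher in the papain library in all 3. A single cell held 10.8% of its PBS UMIs.

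Wfdc18 also gave counts in classes below 10% of its highest level, which were not compared. Dendritic-like cells had 18.5, 327 and 195 CPM, fibroblast-like cells 19.9, 131 and 171 and natural killer-like cells 35.6, 251 and 374 CPM, each higher in both papain-treated libraries. Mature olfactory neuron-like cells (309.6, 107 and 216 CPM) and endothelial-like cells (427, 72.1 and 139 CPM) were highest in the PBS library. The part of free RNA in these counts was not tested.

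Wfdc2, also called HE4, a secreted epithelial protein, stood at 1136, 2257 and 2328 CPM. Secretory and goblet-like cells, with 57.8% of its UMIs, were at 6000.2, 7401 and 8356 CPM and ionocyte-like cells at 3886, 3971 and 3950.4 CPM. Papain ratios of Wfdc2 in these classes were 0.30 and 0.03. Basal epithelial-like cells were at 1684, 2403 and 2036 CPM (0.51) and sustentacular cluster 9 at 2762, 1474 and 1383 CPM (-0.91 [-0.96, -0.85]), so the 4 compared classes lay on both sides within 2-fold. Secretory cluster 21 was at 5656, 11869 and 14771 CPM (1.07). Wfdc17, a macrophage gene, stood at 72.8, 50.01 and 40.6 CPM, with macrophage-like cells at 672, 528 and 629.8 and neutrophil-like cells at 873, 1384 and 947 CPM. Wfdc1, a small secreted protein of smooth muscle, stood at 3.93, 10.2 and 7.25 CPM (1.37 [1.19, 1.57]). Secretory and goblet-like cells had Wfdc1 at 6.72, 29.7 and 17.3 CPM (2.13), with ratios of 2.06 in cluster 10 and 0.24 in cluster 15. Pericyte and vascular smooth muscle-like cells had it at 105, 58.9 and 48.1 CPM, highest in the PBS library. Wfdc3 stood at 13.5, 16.97 and 22.6 CPM. Wfdc12 had 0, 10 and 58 UMIs, at least 3.21-fold higher in the papain than in the PBS library, and Wfdc15b had 21, 11 and 58.

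Of the Spink genes, Spink4, a Kazal-type gene of goblet cells, had 0, 190 and 61 UMIs, at least 61.1-fold higher in the papain than in the PBS library against the limit of 3 counts. The papain UMIs came from 58 cells, and 14.7% from 1 of them. Secretory and goblet-like cells gave 173 of the papain UMIs, while the 342 PBS cells of the class had 0. Spink5, which encodes the kallikrein inhibitor LEKTI, stood at 1.81, 9.52 and 49.2 CPM (2.39 [2.13, 2.66]). Secretory cluster 15 had 0, 292 and 406 UMIs, and basal cluster 6 was at 12.3, 42.9 and 45.99 CPM. A single cell held 39.3% of the PBS and another 20.3% of the papain UMIs. Spink10, with 205, 201 and 197 UMIs, and Spink2, with 22, 31 and 44, lay within 2-fold.

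Proteases that such inhibitors face, and other inhibitors, were read as lists over all cells, each beside the 10.0% of all genes that were 2-fold higher and the 5.19% that were lower. Of 13 cysteine proteases measured 0 were 2-fold higher and 1, Ctsw, was lower in the papain library (-1.05), a lower share near that of all genes. Cathepsin B (Ctsb) stood at 575, 349 and 362 CPM, a ratio of -0.72 beside -0.74 for Cst3. Of 17 epithelial serine proteases 10 were higher and 0 lower, among them Tmprss11d at 0.763, 8.50 and 12.3 CPM (3.47), Tmprss2 at 9.14, 32.7 and 36.6 CPM (1.84) and the kallikrein Klk13 with 1, 242 and 1292 UMIs (7.28 [5.37, 13.18]). Without squamous keratinizing-like, neutrophil precursor-like and erythroid-like cells Klk13 had 1, 226 and 512 UMIs. Kallikreins of skin are targets of LEKTI, the product of Spink5.

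Of 14 plasminogen, coagulation and complement genes 6 were higher and 1 lower, the latter near the 5.19% of all genes. The complement proteases C1ra (1.86) and C1s1 (1.96) were among the 6. Plaur, the urokinase receptor, was at 29.8, 120.03 and 77.01 CPM (2.01) and F3, tissue factor, at 157, 499 and 507 CPM (1.67). The plasminogen activators Plat (45.5, 118 and 85.3 CPM, 1.38) and Plau (4.05, 10.2 and 9.06 CPM, 1.33), which Serpinb2 inhibits, were both higher. The list of leukocyte serine proteases, which also holds the peroxidase Mpo, was split. Of its 14 genes 5 were higher, against 10.0% of all genes, and 9, with Mpo among them, lower, against 5.19%. The mast cell proteases Mcpt1 (0, 377 and 1304 UMIs) and Tpsb2 (5, 203 and 172 UMIs) were among the higher, and Elane (24.7, 6.34 and 38.4 CPM) and Gzma (36.6, 12.9 and 11.04 CPM) among the lower. With the libraries pooled, Mcpt1 (1009 CPM) and Tpsb2 (221 CPM) were highest in neutrophil precursor-like cells, so that class also holds mast cell transcripts. Without the 3 kinds of cells named above, Elane had 185, 14 and 243 UMIs in place of 1975, 526 and 3262, Mcpt1 0, 35 and 50 and Tpsb2 5, 11 and 14. Of 24 inhibitors outside the symbol rule 6 were higher and 2 lower, the latter near the share of all genes, with A2m at 1.16, 4.58 and 6.22 CPM (1.97). Of 4 protease-activated receptors 2 were higher, among them F2rl1 at 35.1, 88.2 and 71.2 CPM (1.33).

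Lonidamine against papain was the other comparison, and it shares the papain library with the first. Over all cells 9 of the 53 genes were at least 2-fold higher in the lonidamine library, against 2.47% of all genes, and 1 was lower, against 1.79%. The median log2 ratio was 0.03 for the 53 and 0.03 for all genes. Without the squamous keratinizing-like, neutrophil precursor-like and erythroid-like cells 6 were higher, namely Serpinb3a, Csta1, Cstdc5, Stfa2, Wfdc12 and Wfdc15b. These 6 are also among the 9, and in kept cells each had fewer than 50 UMIs in the PBS and papain libraries together. The threshold of 50 UMIs over all libraries thus favours genes high in the lonidamine library, and both counts depend in part on it. The share of all genes without those cells was not counted. Within classes 9 of 145 pairs were higher, against 1.86% of all pairs, and 5 lower, against 1.42%.

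Several large lonidamine ratios rested on those few cells. Serpinb3a had a ratio of 7.17 [5.84, 9.67], which was 3.80 without them. Wfdc21, at 6.25, 5.84 and 59.4 CPM, had 92.4% of its lonidamine UMIs in neutrophil precursor-like cells, and its ratio was 3.35 [3.21, 3.48] with and 0.63 without the cells. Spink5 had 73.6% of its lonidamine UMIs in 35 squamous keratinizing-like cells, and its ratio was 2.37 [2.26, 2.48] with and 0.80 without the cells. Csta1 (2.25 and 1.34) and Cst6 (1.11 and 0.75) also had smaller ratios without them. In male cells alone, told apart by sex-linked genes, the ratios of Csta1 and Spink5 were -4.02 and -2.48, on the other side.

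Serpinb2 was near level between the papain and lonidamine libraries over all cells (0.13 [0.02, 0.23]), but squamous keratinizing-like cells gave 47.9% of the lonidamine UMIs. Without the cells the ratio was -0.79, and in basal epithelial-like cells Serpinb2 stood at 68.97 CPM in the papain and 29.6 in the lonidamine library (-1.22). The basal clusters 6 and 18 were both lower (-1.28 and -1.17).

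**Figure D5:**
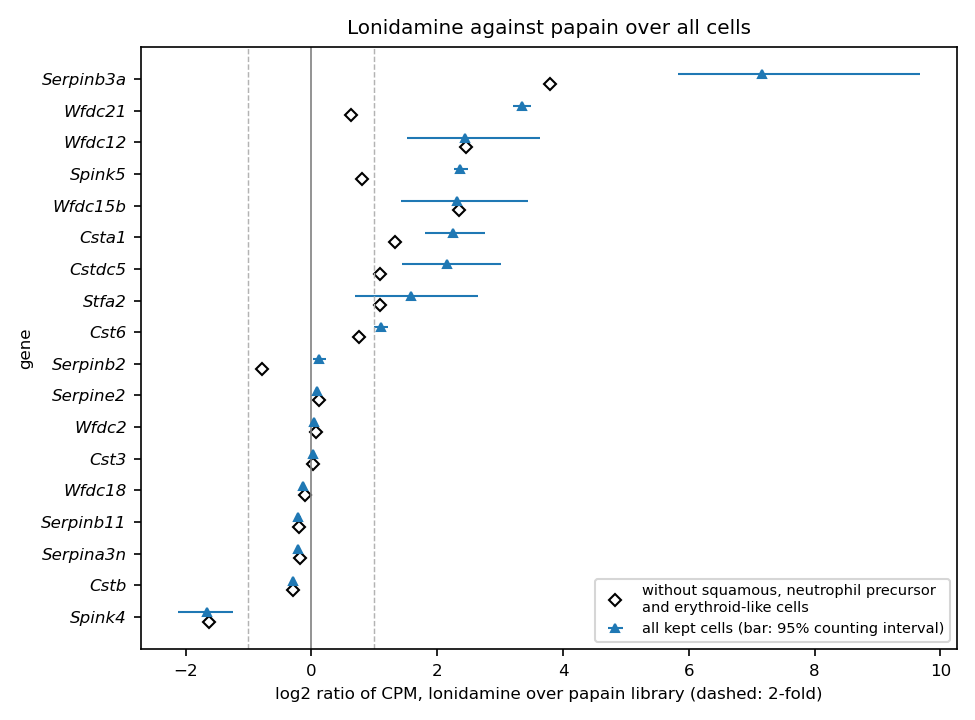
Log2 ratio of CPM, lonidamine over papain library (x axis), for the genes at least 2-fold different over all cells and for further abundant or papain-high genes (y axis); triangles are all kept cells with 95% counting intervals, open diamonds the libraries without squamous keratinizing-like, neutrophil precursor-like and erythroid-like cells, and dashed lines 2-fold. The diamonds of Wfdc21, Spink5 and Cst6 lie inside the 2-fold lines.

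Spink4 was the 1 gene at least 2-fold lower in the lonidamine library (-1.67 [-2.12, -1.25], and -1.63 without the cells above). In secretory and goblet-like cells it was at 11.4 CPM in the papain and 3.52 in the lonidamine library. Cluster 15 had 113 and 47 UMIs and cluster 10 had 56 and 5, lower in both. Cst6 was higher in the class (1.05), while the ratio in cluster 21, with 136, 103 and 239 cells, was 0.26.

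Other classes showed single differences, each from fewer than 200 UMIs. Natural killer-like cells had Serpina3g at 56.98 CPM in the papain and 128 in the lonidamine library (1.14 [0.35, 2.05]), and sustentacular cluster 9 had Serpinb7 at 7.98 and 17.2 CPM (1.10 [0.63, 1.60]). Endothelial-like cells had Wfdc1 at 14.7 and 6.44 CPM (-1.17), and monocyte-like cells Serpinb8 at 81.7 and 30.5 CPM (-1.40). Immature olfactory neuron-like cells had Serpina1a at 3.83 and 8.11 CPM (1.07), and neutrophil-like cells Cstdc5 at 16.1 and 36.9 CPM (1.17 [0.33, 2.104]). The Cstdc5 ratio was -1.65 in female and -0.37 in male cells taken singly, and that of Wfdc1 0.34 in male cells. For Cstdc5 the split left out most neutrophil-like cells. Of these, 424 of 686 papain and 447 of 660 lonidamine cells had no call of sex. The Cstdc5 values therefore say nothing about a dependence on sex.

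Among the genes at least 2-fold higher in the papain than in the PBS library, Wfdc18 (-0.14), Serpinb11 (-0.21), Serpinb7 (-0.21), Serpinb5 (0.01), Serping1 (-0.08) and Serpina3f (-0.07) lay close to the papain library in the lonidamine library. Each of these 6 was also at least 2-fold higher in the lonidamine than in the PBS library, with the ratio of Serping1, 1.32, the smallest. Others of the papain-high genes lay further from the papain library. Spink4 (-1.67), Serpina3g (-0.56), Serpina1e (-0.53) and Wfdc1 (-0.49) were lower, and Spink5 (2.37), Csta1 (2.25) and Stfa2l1 (0.81) higher.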

How the data were processed

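Single cells of pooled nasal mucosa were counted in 3 libraries, 1 per group. The deposited values are raw UMI counts per gene and barcode; Cell Ranger is given as 2.1.1 in the submitters' processing notes and as 7.1.0 per the file headers, with build GRCm39, and Seurat 4.3.0 is named per the labels. Cells needed 500 UMIs, 200 genes and no more than 20% mitochondrial UMIs, and 137, 188 and 262 Scrublet doublets (scanpy 1.11.5) were removed. Deposited totals were 82399462, 86197965 and 89164040 UMIs. Clustering used 2000 variable genes, none of the symbol rule, 40 components, 20 neighbours and leidenalg 0.10.2 at resolution 1. A cluster was named from at least 3 markers, each detected in at least 10% of its cells and at least 3-fold above the other cells; compared classes needed 100 cells in every library. Log2 ratios of CPM used 0.5 added counts, with conditional binomial 95% intervals (Clopper-Pearson). The ratio and its interval were run on simulated independent Poisson counts, the model that the interval assumes. Such counts hold no spread between animals or cells, so the run cannot show how the intervals cover these.

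Genes, lists and tests were chosen with earlier results of these data known. Named with values were the 12 most counted genes, up to 12 (papain) or 8 (lonidamine) each way with at least 200 UMIs at 2-fold, up to 4 pairs each way per class with at least 50 UMIs, and all inhibitors of papain-like proteases; further genes are named to account for the other members, and 1 member, counted in the totals, is not reported here.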

Additional observations from a re-analysis of the deposited data

Results flagged for a closer look

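For 2 genes the lonidamine library lay on opposite sides of the papain library in female and in male cells, which were told apart by sex-linked genes; the difference between the sexes was not tested. Csta1 had a log2 ratio of 4.36 in female and -4.02 in male cells. Its UMIs in the papain library were 8 in female and 36 in male cells, 25 of the latter from 1 cell, and in the lonidamine library 217 and 1. Spink5 had a log2 ratio of 3.39 in female and -2.48 in male cells, from 295 and 438 UMIs in the papain library and 3865 and 52 in the lonidamine library. Of the 35 squamous keratinizing-like cells of the lonidamine library 31 were female, none was male and 4 were not assigned, and the 1 such cell of the papain library was male and held 160 of its 438 Spink5 UMIs.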

How the results depend on the processing

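With 1 library per group, no replicate could be left out, and every value holds for these pools only. No paired analysis was possible because each group has 1 sample and the labels give no replicate numbers. For papain against PBS over all cells, the higher count was 38 without a filter on low counts; the lower count was 2 with at least 200 UMIs, 7 without a filter and 2 with totals without mitochondrial genes and 18S. Within classes the higher pairs were 13 at 30% of the highest class and 67 with no such condition; the lower pairs were 17 at resolution 2, 6 at 30%, 18 with each library clustered alone, 18 in male cells and 25 with no condition. For lonidamine against papain the higher count was 5 with at least 200 UMIs and 19 without a filter, and the lower count 11 in male cells and 7 without a filter. Its higher pairs were 5 in male cells and 32 with no condition; its lower pairs were 13 at resolution 2, 3 at 30%, 17 with libraries clustered alone, 9 with cells gated by markers, 9 in male cells and 20 with no condition. The causes were not tested beyond these constructions. Shares of all genes under these settings are not given, and the number of genes or pairs counted changes with the filter. These counts therefore stand without a background and describe only how the totals move. Another 73 summary counts stayed within 1.5 times. Single ratios moved more: 60 of 100 lay outside the counting interval of the reported value in female cells, 77 of 97 in male cells, 41 of 66 with a fixed mix of classes, 36 of 66 with every cell weighted alike and 18 of 66 without squamous, precursor and erythroid-like cells. Those that changed sign were Cst6 in secretory and goblet-like cells for papain against PBS (0.29 with doublets kept, 4.08 with libraries clustered alone), Serpina3n there (1.13 with libraries clustered alone), Stfa2l1 (-0.063 with a fixed mix of classes), and, for lonidamine against papain, Cstdc5 in neutrophil-like cells (-1.65 in female, -0.37 in male cells), Wfdc1 in endothelial-like cells (0.34 in male cells), Csta1 (-4.02 in male cells) and Spink5 (-2.48 in male cells). Leaving out the squamous, precursor and erythroid-like cells was chosen after seeing the data. Depth limits 13 of 53 genes, which have under 200 UMIs.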
